A study of Homo sapiens with 6 samples.

Results

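The genes of the gamma-tubulin ring complex were followed by RNA-seq in HEK-293T cells expressing the squid protein reflectin A1 (RfA1). The members were taken by gene symbol and were TUBG1, TUBG2, TUBGCP2, TUBGCP3, TUBGCP4, TUBGCP5, TUBGCP6, MZT1, MZT2B and NEDD1. The rule uses no measured value, although it was set with earlier results of these data known. All 10 were among the 16655 genes of the table, and all 10 passed the filter on low counts together with 13002 genes in all. HEK-293T is a line of human embryonic kidney cells that carries the SV40 large T antigen. The 3 control libraries (GFP) came from cells that received the empty pEGFP-C1 vector, which makes GFP alone, and the 3 RfA1 libraries came from cells that received the same vector carrying GFP-tagged RfA1. Both groups were transfected with Lipofectamine (Lipo3000 in the labels) and harvested 24 h later, so that lipofection, the vector and GFP were common to them. Expression was transient, and the share of cells that took up the vector was not measured in these libraries. Transcripts of the vectors were not analysed here, so the labels were not checked by the transgene.

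Microtubules grow from gamma-tubulin, a relative of alpha- and beta-tubulin that does not form the microtubule wall but acts as the template for its first subunits. Gamma-tubulin is held in a cone-shaped ring by the gamma-tubulin complex proteins GCP2 to GCP6, which the genes TUBGCP2 to TUBGCP6 encode. GCP2 and GCP3 form the bulk of the ring, and GCP4, GCP5 and GCP6 take a few defined places in it. MZT1 and MZT2 are very small proteins that bind the GCPs and are needed for assembly of the ring or for its activation, and NEDD1 brings the ring to the centrosome and the spindle. The ring caps the minus ends of microtubules at the centrosome, the main microtubule-organizing center of animal cells. The study was concerned with RfA1 and the microtubule system, and the comparison here asked whether the transcripts of the ring differed between RfA1 and GFP cells.

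The libraries held 10272306 to 11566284 counts. Levels are in CPM (counts per 1000000 of the TMM-normalized library size) for comparisons of a gene between libraries, and as the deposited TPM, which also divides by transcript length, for comparisons between genes. All 7 HEK-293T markers examined were present, from 3.43 TPM for PAX2 to 724 TPM for VIM. The markers PTPRC, ALB, PECAM1 and MYH7 of other cell types reached 0.62 TPM at most, whereas COL1A1, of fibroblasts, was at 8.20 to 10.1 TPM. COL1A2, also a marker of fibroblasts, was absent from the deposited genes, as were CD3E and INS. The libraries differed along the GC content of transcripts. The median log2 deviation of the tenth of genes with the highest GC minus that of the tenth with the lowest was -0.09, 0.35 and 0.23 in GFP replicates 1 to 3 and -0.32, 0.26 and -0.43 in RfA1 replicates 1 to 3. RfA1 replicate 2 therefore lay among the GFP libraries on this scale, and values without it are given below. Nothing in the labels says that replicates came from separate cultures, so the p-values measure the spread between these libraries only. In bulk RNA, fewer cells that express a gene and less RNA per cell cannot be told apart.

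Pairs of near-identical genes stand within the complex, and their sequences set how far their counts can be told apart. TUBG1 (Gene ID 7283) and TUBG2 (Gene ID 27175) are neighbours on the plus strand of chromosome 17 (GRCh38, GENCODE 29, positions 42609676 to 42615234 and 42659305 to 42667006), each with 11 exons. Their coding sequences, both of 1353 bases, were identical at 1281 positions (94.7%). The longest run without a difference was 215 bases, coding positions 118 to 332 of both genes, in exons 2 to 4 (42610176 to 42612076 in TUBG1 and 42659902 to 42660640 in TUBG2, introns included). A read inside this run carries nothing that assigns it to one gene or the other:
TUBG1 and TUBG2, coding positions 118 to 332: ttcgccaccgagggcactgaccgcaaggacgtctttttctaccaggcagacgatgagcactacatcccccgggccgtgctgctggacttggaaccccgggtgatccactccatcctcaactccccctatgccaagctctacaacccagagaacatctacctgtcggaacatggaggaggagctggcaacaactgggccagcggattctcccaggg
The stretch of 120 bases with the most differences began at the end of this run, in exons 4 and 5, and is shown because reads there separate the genes best. Other differences lie elsewhere in the coding sequence. Capitals mark the 18 bases that differ:
TUBG1, coding positions 331 to 450: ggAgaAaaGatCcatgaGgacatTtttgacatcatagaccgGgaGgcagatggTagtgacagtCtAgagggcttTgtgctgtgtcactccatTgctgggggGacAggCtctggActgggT
TUBG2, coding positions 331 to 450: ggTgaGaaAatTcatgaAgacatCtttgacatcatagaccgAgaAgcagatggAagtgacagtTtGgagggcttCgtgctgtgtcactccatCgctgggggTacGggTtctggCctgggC
Of all windows of 50 bases in the TUBG1 transcript, 29.1% occurred letter for letter in a TUBG2 transcript, and 26.5% of those of TUBG2 occurred in a TUBG1 transcript.

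MZT2B (Gene ID 80097, chromosome 2, plus strand, 130181737 to 130190729) has the paralog MZT2A (Gene ID 653784, minus strand, 131464900 to 131492743), which is not a member and is described with it. Their coding sequences of 474 bases were identical at 464 positions (97.9%), with a longest identical run of 175 bases that crosses all 3 exons:
MZT2A and MZT2B, coding positions 150 to 324: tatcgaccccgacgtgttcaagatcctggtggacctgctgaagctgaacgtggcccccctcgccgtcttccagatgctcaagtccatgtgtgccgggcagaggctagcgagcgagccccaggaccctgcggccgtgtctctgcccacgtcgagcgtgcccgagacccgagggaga
The most divergent stretch of 120 bases, in exon 3, held 6 differences, in capitals:
MZT2A, coding positions 345 to 464: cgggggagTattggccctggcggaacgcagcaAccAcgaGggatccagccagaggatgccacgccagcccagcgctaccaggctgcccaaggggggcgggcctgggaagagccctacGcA
MZT2B, coding positions 345 to 464: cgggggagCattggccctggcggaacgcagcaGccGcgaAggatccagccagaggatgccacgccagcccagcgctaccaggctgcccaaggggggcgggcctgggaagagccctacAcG
The deposited counts showed the sharing of reads directly. TUBG1, TUBG2 and MZT2B had estimated counts that were not whole in 6 of 6 libraries, and the other 7 members had whole counts in every library, except TUBGCP4 in 1 (tolerance 0.005 counts). In GFP replicate 1, for example, TUBG1 was given 2563.47 counts and TUBG2 620.53, which sum to 3184. The sums TUBG1 plus TUBG2 and MZT2A plus MZT2B were whole in 6 of 6 libraries each. The fractions of each pair thus cancelled within the pair, and the sum of a pair does not depend on how its reads were divided.

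The pairs differed in the sequence before their starts. Promoters from the RefSeq table were found for 9 of the 10 members, all but TUBGCP4. The 250 bases before the RefSeq start are shown for both pairs because MZT2A and MZT2B were nearly the same there, whereas TUBG1 and TUBG2 were not. For MZT2A and MZT2B all 250 bases lie inside the GENCODE 29 gene span given above, and for TUBG1 the last few bases do. Capitals mark the words CCAAT and GGGCGG on either strand (GRCh38.p14, written 5′ to 3′ on the gene's strand):
TUBG1, chr17:42609433-42609682, plus strand: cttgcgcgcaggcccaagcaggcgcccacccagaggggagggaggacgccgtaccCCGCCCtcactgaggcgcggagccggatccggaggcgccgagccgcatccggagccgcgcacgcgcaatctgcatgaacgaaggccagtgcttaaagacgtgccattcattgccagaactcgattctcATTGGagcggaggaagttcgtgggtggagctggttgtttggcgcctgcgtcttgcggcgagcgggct
TUBG2, chr17:42659034-42659283, plus strand: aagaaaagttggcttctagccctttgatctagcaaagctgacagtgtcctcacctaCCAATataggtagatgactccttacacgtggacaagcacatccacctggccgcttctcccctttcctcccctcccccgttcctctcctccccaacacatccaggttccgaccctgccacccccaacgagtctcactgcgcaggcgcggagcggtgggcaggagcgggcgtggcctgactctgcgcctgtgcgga
MZT2A, chr2:131492398-131492647, minus strand: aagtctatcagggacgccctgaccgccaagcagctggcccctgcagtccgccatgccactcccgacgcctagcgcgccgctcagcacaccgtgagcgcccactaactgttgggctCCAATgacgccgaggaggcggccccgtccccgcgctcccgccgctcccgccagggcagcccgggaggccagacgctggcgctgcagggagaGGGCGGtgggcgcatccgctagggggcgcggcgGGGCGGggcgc
MZT2B, chr2:130182012-130182261, plus strand: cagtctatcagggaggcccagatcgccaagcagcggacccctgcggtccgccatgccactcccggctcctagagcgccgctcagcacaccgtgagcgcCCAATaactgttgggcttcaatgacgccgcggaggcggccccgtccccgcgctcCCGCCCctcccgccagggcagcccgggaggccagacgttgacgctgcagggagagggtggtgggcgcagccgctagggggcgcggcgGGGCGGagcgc
MZT2A and MZT2B matched at 92.4% of 250 aligned bases. TUBG1 and TUBG2 matched at 53.9% of 230 bases of an alignment with gaps. CCAAT, the word bound by the factor NF-Y, occurred in 5 of the 9 members and in 33.0% of 27305 promoters. GGGCGG, the core of a GC box, occurred in 6 of the 9 and in 42.3% of all promoters. TUBG1 held 1 of each, and TUBG2 held CCAAT and no GGGCGG. The TATA box word TATAAA occurred in 0 of the 9 members, against 11.1% of all promoters, and TTTGAA, a core of the cell-cycle element CHR, in 1 (MZT1), against 13.6%. These matches describe letters, and binding was not measured.

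**Figure D1:**
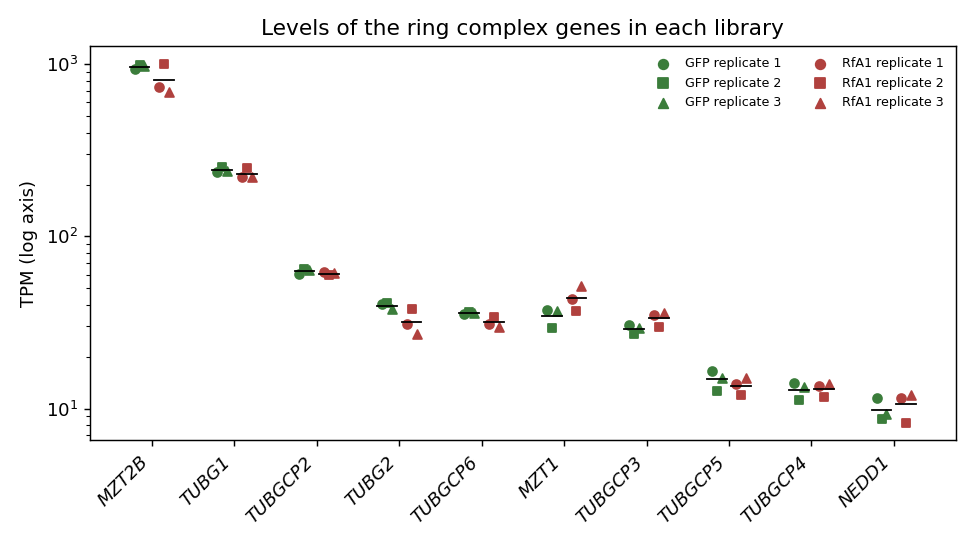
Deposited TPM of the 10 ring complex genes in each library, on a log axis. Green symbols are GFP libraries, red symbols RfA1 libraries, the symbol shape gives the replicate and the black line the mean of 3. MZT2B was highest (966 TPM in GFP cells) and NEDD1 lowest (9.82 TPM), and TUBG2, TUBGCP6, MZT1 and TUBGCP3 lay close together.

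In GFP cells the members spanned from 966 TPM ± 21.7 (SD, n = 3) for MZT2B to 9.82 TPM ± 1.47 for NEDD1, as the plot of TPM by gene shows. TUBG1 came after MZT2B with 243 TPM ± 9.44, then TUBGCP2 with 62.9 ± 1.92 and TUBG2 with 39.6 ± 1.74. The ranges of each of these neighbours over the 3 libraries did not overlap. TUBGCP6 (35.9 TPM ± 0.461), MZT1 (34.6 ± 4.47) and TUBGCP3 (28.97 ± 1.71) followed, and the ranges of MZT1 overlapped with those of both its neighbours. TUBGCP5 (14.8 ± 1.90), TUBGCP4 (12.9 ± 1.51) and NEDD1 formed a lowest set in which each overlapped with the next. In RfA1 cells the upper 3 and the lower 3 places were the same, and MZT1 (43.8 TPM ± 7.54) and TUBGCP3 (33.6 ± 3.43) stood before TUBG2 (31.9 ± 5.25) and TUBGCP6 (31.7 ± 2.07), where MZT1 and TUBGCP6 were clear of their lower neighbours and TUBGCP3 and TUBG2 were not. The lead of MZT2B depends in size on the length that entered TPM. The deposited counts and FPKM imply 325 to 329 bases for MZT2B, against 933 bases in its GENCODE 29 transcript, and 1369 to 1372 for TUBG1 against 1611. Divided by the length of the GENCODE transcript in kilobases, MZT2B had 248 CPM and TUBG1 152 CPM in GFP cells, still the highest members, and MZT2A had 294 CPM.

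The gamma-tubulins themselves are TUBG1, the main form in most tissues, and TUBG2, which is best known from brain. TUBG1 had 231, 262 and 241 CPM in GFP replicates 1 to 3 and 207, 255 and 206 CPM in RfA1 replicates 1 to 3. RfA1 replicates 1 and 3 lay below every GFP library and RfA1 replicate 2 lay within their range. The log2 fold change was -0.13 ± 0.098 (standard error), with a 95% interval from -0.35 to 0.08 and an adjusted p of 0.536 (edgeR, adjusted by Benjamini-Hochberg over all tested genes). TUBG2 had 55.9, 56.7 and 52.4 CPM in GFP cells and 44.96, 53.3 and 39.2 CPM in RfA1 cells, with the same library out of line. Its log2 fold change was -0.26 (standard error 0.11, 95% interval -0.51 to -0.02), with an unadjusted p of 0.0348 and an adjusted p of 0.332 in the same edgeR test. In TPM the groups of TUBG2 did not overlap, although only by 37.64 TPM in GFP replicate 3 against 37.61 TPM in RfA1 replicate 2. Summed, the pair differed by -0.16 on the log2 scale (standard error 0.098, adjusted p = 0.467 in edgeR), a value that is free of the division of reads between them.

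The share of TUBG2 in gamma-tubulin transcripts was 14.7%, 13.9% and 13.6% of the TPM of the pair in GFP cells and 12.3%, 13.1% and 10.9% in RfA1 cells. In TPM every RfA1 library was below every GFP library, with means of 14.0% ± 0.582 and 12.1% ± 1.11 (SD, n = 3). On the log2 scale the ratio of TUBG2 to TUBG1 differed by -0.25 (RfA1 minus GFP, p = 0.1 by a two-sided exact permutation test, which cannot go lower with 3 libraries a group). On the estimated counts the difference was -0.14 (exact permutation test, p = 0.2), and the groups overlapped. There the ratio in RfA1 replicate 1 (493.85 to 2276.15 counts) was above that in GFP replicate 2 (642.62 to 2967.38 counts). The length that the deposited values imply for TUBG2 ran from 1845 to 2131 bases among the libraries, against 1369 to 1372 for TUBG1, so that the TPM ratio carries a term that the counts do not. MZT2B and MZT2A had a ratio of 1.45 ± 0.0184 in GFP cells and 1.46 ± 0.0324 in RfA1 cells, with overlapping groups.

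**Figure D2:**
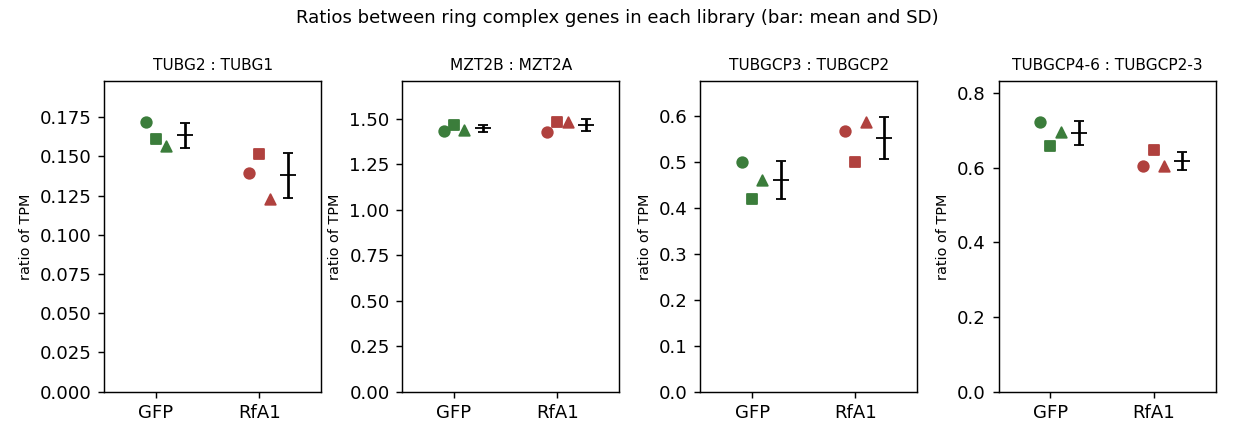
Ratios of TPM between ring complex genes in each library, with the symbols of the replicates as circles, squares and triangles, green for GFP and red for RfA1, and the mean and SD (n = 3) in black. The TPM ratio of TUBG2 to TUBG1 was lower in all RfA1 libraries (0.123 to 0.151) than in the GFP libraries (0.157 to 0.172), and the ratio of MZT2B to MZT2A was 1.43 to 1.48 in all 6. In estimated counts the ratio of TUBG2 to TUBG1 overlapped between the groups.

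TUBGCP2 (Gene ID 10844, chromosome 10, 133278630 to 133312337) and TUBGCP3 (Gene ID 10426, chromosome 13, 112485005 to 112588205), both on the minus strand in GRCh38, encode most of the ring and had fold changes of opposite sign. TUBGCP2 had 163, 181 and 173 CPM in GFP cells and 158, 166 and 155 CPM in RfA1 cells, with RfA1 replicate 2 inside the GFP range (log2 fold change -0.11, standard error 0.079, adjusted p = 0.513 in edgeR). TUBGCP3 had 70.8, 64.5 and 68.4 CPM in GFP cells and 75.1, 72.1 and 76.7 CPM in RfA1 cells. All 3 RfA1 libraries of TUBGCP3 were above all GFP libraries in CPM, yet the difference of 0.14 on the log2 scale (standard error 0.080) did not pass (adjusted p = 0.447 in edgeR), and in TPM the groups overlapped. The TPM ratio of TUBGCP3 to TUBGCP2 was 0.501, 0.420 and 0.462 in GFP cells and 0.568, 0.500 and 0.589 in RfA1 cells. RfA1 replicate 2 and GFP replicate 1 were nearly equal here, and the groups overlapped.

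GCP4, GCP5 and GCP6 are scarcer in the ring than GCP2 and GCP3. Their genes lie on chromosome 15 (TUBGCP4, Gene ID 27229, 43369221 to 43409771, and TUBGCP5, Gene ID 114791, 22983192 to 23039673) and chromosome 22 (TUBGCP6, Gene ID 85378, 50217689 to 50244992). TUBGCP4 had 64.1, 55.0 and 64.0 CPM in GFP cells and 59.3, 57.0 and 61.8 CPM in RfA1 cells, and every RfA1 value lay within the GFP range (log2 fold change -0.04, standard error 0.090, adjusted p = 0.856 in edgeR). TUBGCP5 had 41.2, 33.6 and 38.5 CPM in GFP cells and 32.9, 31.2 and 35.3 CPM in RfA1 cells. The groups of TUBGCP5 overlapped through GFP replicate 2 (log2 fold change -0.19, standard error 0.10, adjusted p = 0.419 in edgeR). TUBGCP6, whose product is the largest of the family, had 147, 159 and 153 CPM in GFP cells and 123, 148 and 118 CPM in RfA1 cells. RfA1 replicate 2 alone reached the GFP range, by less than 1 CPM above GFP replicate 1. Its log2 fold change was -0.24 (standard error 0.095, 95% interval -0.45 to -0.03), with an unadjusted p of 0.0278, the smallest among the members, and an adjusted p of 0.320 in the edgeR test. In TPM the GFP libraries of TUBGCP6 held 35.5, 36.4 and 36.0 and the RfA1 libraries 31.1, 33.96 and 29.9, without overlap. Summed, the TPM of the 3 genes relative to TUBGCP2 plus TUBGCP3 was 0.723, 0.658 and 0.694 in GFP cells and 0.603, 0.646 and 0.605 in RfA1 cells, without overlap (means 0.692 ± 0.0327 and 0.618 ± 0.0243). The closest values were 0.658 and 0.646, and this ratio was not tested. How often ratios of other genes separate in this way was not examined. Of the summed genes, TUBGCP4 had means of 12.86 TPM in GFP cells and 12.99 TPM in RfA1 cells. The ratio of both gamma-tubulins to the 5 GCP genes was 1.82 ± 0.103 and 1.72 ± 0.198, within the spread of the libraries.

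Among the small subunits, MZT1 (Gene ID 440145, chromosome 13, 72708357 to 72727687) and MZT2B had fold changes of opposite sign. MZT1 had 52.9, 43.7 and 52.9 CPM in GFP cells and 58.1, 54.1 and 69.2 CPM in RfA1 cells, so that all RfA1 libraries were above all GFP libraries. The log2 fold change was 0.28 (standard error 0.11, 95% interval 0.03 to 0.53), with an unadjusted p of 0.0303 and an adjusted p of 0.321 in the edgeR test. In TPM the groups of MZT1 overlapped, since RfA1 replicate 2 had 36.68 TPM and GFP replicates 1 and 3 had 37.53 and 36.73. MZT2B had 220.5, 243 and 231 CPM in GFP cells and 165, 244 and 154 CPM in RfA1 cells. RfA1 replicate 2 was the highest of all 6 libraries for MZT2B, and the other 2 RfA1 libraries were the lowest. Of all members MZT2B had the fold change of largest size, -0.30 on the log2 scale, and the largest standard error, 0.15 (adjusted p = 0.376 in edgeR). MZT2A followed the same order of libraries with 178, 187 and 186 CPM against 136, 191 and 122 CPM (log2 fold change -0.29, standard error 0.14, adjusted p = 0.364 in edgeR), and the sum of the pair gave -0.30 (adjusted p = 0.369). NEDD1, the targeting factor (Gene ID 121441, chromosome 12, 96907223 to 96953777), had 26.4, 21.4 and 22.2 CPM in GFP cells and 26.1, 21.2 and 27.3 CPM in RfA1 cells, with overlapping groups (log2 fold change 0.09, standard error 0.13, adjusted p = 0.751 in edgeR).

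**Figure D3:**
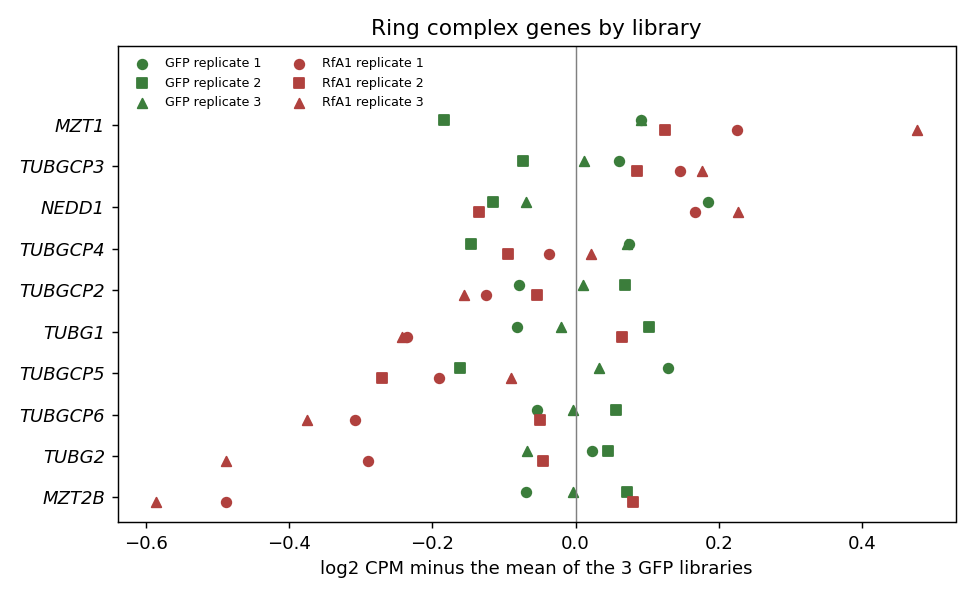
Each ring complex gene in each library as log2 CPM minus the mean of the 3 GFP libraries, ordered by fold change. Green symbols are GFP and red symbols RfA1 libraries, and shapes give the replicate. RfA1 replicate 2 (red squares) lay with the GFP libraries for MZT2B, TUBG2, TUBGCP6 and TUBG1, and only MZT1 and TUBGCP3 had all RfA1 libraries above all GFP libraries.

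Of the 10 members, 0 had an adjusted p under 0.05 in edgeR, where 10 of 13002 genes (0.0769%) did so, 8 higher and 2 lower with RfA1. DESeq2 and limma-trend on log2(TPM + 1) also called 0 members. An unadjusted p under 0.05 was reached in edgeR by 3 members, against 13.9% of all tested genes. These were MZT1, higher with RfA1 (7.3% of all genes were higher by this rule), and TUBGCP6 and TUBG2, lower with RfA1 (6.64% of all genes). In CPM 2 members, MZT1 and TUBGCP3, were higher without overlap (9.86% of all genes) and 0 were lower without overlap (8.01% of all genes). In TPM 0 members were higher without overlap (9.29% of all genes) and 2, TUBG2 and TUBGCP6, were lower (6.15% of all genes). The log2 fold change was negative for 7 members and positive for 3, with a median of -0.12, against -0.0024 over all tested genes. In size, the median of the members was 0.162 and that of all tested genes 0.126.

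RfA1 replicate 2, which lay among the GFP libraries on the GC scale, decided on which side of the threshold 5 of the members fell. Without this library 5 members passed, at a point where 20.1% of all tested genes passed (2636 of 13129), so that the count of members is to be read against this share. Both RfA1 libraries left in that fit (-0.32 and -0.43) lay below every GFP library (lowest -0.09) on the GC scale. Group and library GC content cannot be told apart there. The log2 fold change was then -0.54 for MZT2B (adjusted p = 0.000491 in edgeR), -0.39 for TUBG2 (adjusted p = 0.00834), -0.34 for TUBGCP6 (adjusted p = 0.00487) and -0.24 for TUBG1 (adjusted p = 0.0269), all lower in RfA1 cells. MZT1 was higher, by 0.35 on the log2 scale (adjusted p = 0.0192 in edgeR). The sum of TUBG1 and TUBG2 was at -0.27 (adjusted p = 0.0142) and that of MZT2A and MZT2B at -0.52 (adjusted p = 0.000458). MZT2A alone was at -0.51 (adjusted p = 0.000752). With any other library left out, 0 members passed. Without RfA1 replicate 3 the differences were smaller than with all libraries, at -0.18 for MZT2B, -0.16 for TUBG2, -0.08 for TUBG1 and 0.17 for MZT1, and without RfA1 replicate 1 TUBG1 was likewise at -0.08. TUBGCP2, TUBGCP3, TUBGCP4, TUBGCP5 and NEDD1 did not pass under any of these omissions.

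Transcript GC content separated the members with negative from those with positive fold changes, with 2 exceptions. MZT2B (67.8% GC), TUBGCP6 (61.4%), TUBGCP2 (59.0%), TUBG2 (58.8%) and TUBG1 (57.8%) were above the median of all tested genes, 49.2%, and all 5 had negative log2 fold changes. TUBGCP3 (46.5%), NEDD1 (35.5%) and MZT1 (32.0%), all below the median, had the 3 positive ones, and TUBGCP4 (45.3%) and TUBGCP5 (44.5%) were below the median and negative. Over all tested genes the median log2 fold change was 0.13 in the tenth with the lowest GC and -0.19 in the tenth with the highest. After a correction for GC content within each library, the log2 fold change of MZT2B was -0.12 (adjusted p = 0.366 in edgeR), that of TUBG2 -0.15 (adjusted p = 0.352), that of TUBGCP6 -0.09 (adjusted p = 0.454) and that of MZT1 0.12 (adjusted p = 0.409). TUBG1 was at -0.03 (adjusted p = 0.856). TUBGCP2 and NEDD1 changed sign, to 0.01 and -0.04. TUBGCP3 was at 0.09 (adjusted p = 0.492). TUBGCP5 and TUBGCP4 became larger in size, TUBGCP5 at -0.25 (standard error 0.077, unadjusted p = 0.00421, adjusted p = 0.112 in edgeR) and TUBGCP4 at -0.09 (adjusted p = 0.528). The correction called 206 of 13002 genes (1.58%) and 0 members, and 1 member against 16.1% of all genes had an unadjusted p under 0.05. How far library GC content accounts for the differences of the members was not tested.

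**Figure D4:**
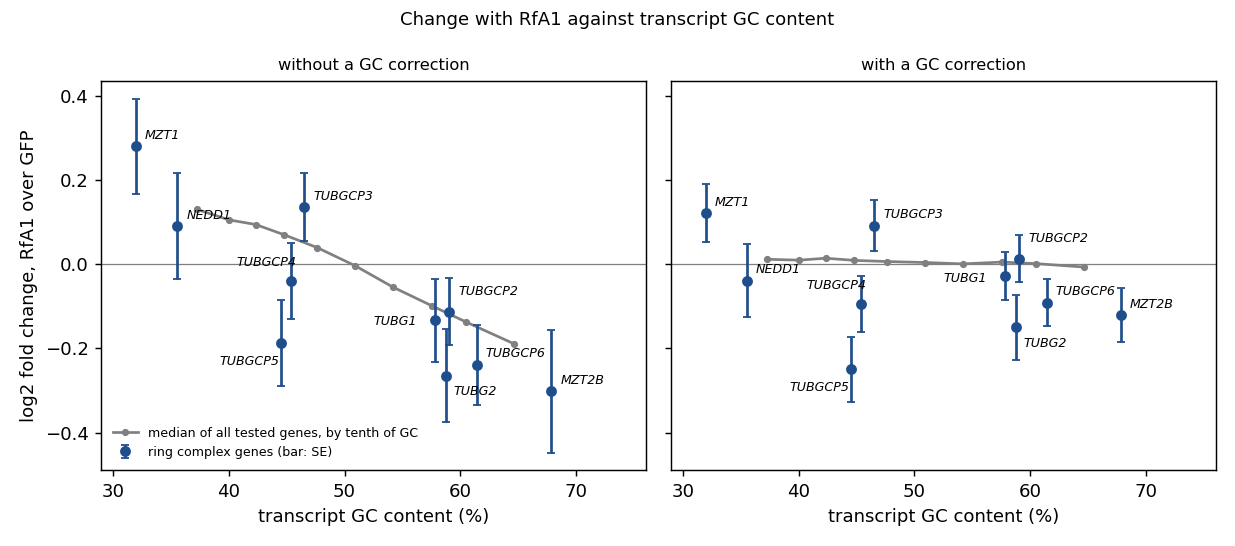
Log2 fold change of RfA1 over GFP against transcript GC content for the 10 ring complex genes (blue, bars are standard errors), without (left) and with (right) a GC correction of each library. The grey line joins the medians of all tested genes split into 10 bins by GC, from 0.13 to -0.19 without the correction, and the 5 members of highest GC lay near or below it. TUBGCP5, TUBGCP4, TUBG1, TUBG2 and TUBGCP6 stood below it in both panels.

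The genes most like TUBG1 over the 6 libraries, by Pearson's correlation of log2 CPM among 10510 genes whose mean log2 CPM was 3 or more, were ISOC2 (r = 0.998), PLEKHM2 (0.998) and NAPRT (0.997). Among those most like TUBG2 were MTCH1 (0.990) and HYI (0.988). The transcripts of these genes were GC-rich, from 59.6% GC in MTCH1 to 68.0% in NAPRT. These are descriptions over 6 libraries that share the GC differences above.

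Genes that act with the ring were described by lists, 51 genes in all, of which 0 passed the adjusted threshold in edgeR, while 6 had an unadjusted p under 0.05 with a higher and 3 with a lower level in RfA1 cells, against 7.3% and 6.64% of all tested genes, which are also the shares to set beside the counts of each list. Without RfA1 replicate 2, 13 of the 51 passed, against 20.1% of all tested genes. In that fit both RfA1 libraries (-0.32 and -0.43) lay below every GFP library (lowest -0.09) on the GC scale above. With the GC correction 2 of the 51 passed, against 1.58% of all tested genes. Further parts of the ring and tubulin relatives (6 genes, median log2 fold change -0.04) included NME7, LGALS3BP and ACTB, none with an unadjusted p under 0.05. TUBE1, the epsilon-tubulin of centrioles, had the smallest p of the list, with 33.8, 29.2 and 28.3 CPM in GFP cells and 40.1, 30.4 and 39.8 CPM in RfA1 cells. RfA1 replicate 2 lay in the GFP range for TUBE1 (log2 fold change 0.27, standard error 0.12, adjusted p = 0.354 in edgeR), and without it TUBE1 passed, at 0.39 (adjusted p = 0.0108). TUBE1 was at 0.17 after the GC correction and did not pass (adjusted p = 0.313 in edgeR).

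The list of recruiters and activators held 17 genes of scaffold, centrosome and spindle proteins, not all of which hold the ring. Their median log2 fold change was 0.06, and 1 of them had an unadjusted p under 0.05. This was PDE4DIP (myomegalin), a relative of CDK5RAP2 that anchors the ring, with 71.3, 68.7 and 68.4 CPM in GFP cells and 62.5, 55.4 and 57.9 CPM in RfA1 cells. All RfA1 libraries of PDE4DIP were below all GFP libraries, as for 8.01% of all tested genes in CPM (log2 fold change -0.24, standard error 0.083, adjusted p = 0.278 in edgeR). After the GC correction PDE4DIP passed, with -0.33 (adjusted p = 0.0118 in edgeR). In limma-trend on log2(TPM + 1) it was at -0.11 (adjusted p = 0.684), and without RfA1 replicate 2 at -0.20 in edgeR (adjusted p = 0.0800). The other scaffolds CDK5RAP2, PCNT and AKAP9 were at -0.05, -0.14 and 0.06.

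Of 8 kinases that control centrosome growth and ring recruitment, 2 had an unadjusted p under 0.05, PLK4 and CDK1, both higher in RfA1 cells (median of the list 0.05). CDK1 was at 0.21 (unadjusted p = 0.0246, adjusted p = 0.313 in edgeR). All RfA1 libraries of CDK1 were above all GFP libraries, as for 9.86% of all tested genes in CPM. After the GC correction CDK1 was at 0.09 and did not pass (adjusted p = 0.523 in edgeR). PLK4, the kinase that starts centriole duplication, had 52.0, 45.9 and 47.1 CPM in GFP cells and 64.1, 51.7 and 68.9 CPM in RfA1 cells. RfA1 replicate 2 fell just below GFP replicate 1 (log2 fold change 0.35, standard error 0.11, adjusted p = 0.259 in edgeR). Without that library PLK4 passed, with 0.46 (adjusted p = 0.00252). PLK4 was at 0.24 after the GC correction and did not pass (adjusted p = 0.0815 in edgeR). PLK1, the mitotic kinase that matures centrosomes, was at -0.13, and at -0.21 without RfA1 replicate 2, where it passed (adjusted p = 0.0466 in edgeR). With the GC correction PLK1 was at -0.03 (adjusted p = 0.863 in edgeR). AURKA was at 0.06 and did not pass in any of these fits.

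Augmin, the complex that carries the ring onto the side of existing microtubules, had 8 genes with a median log2 fold change of 0.13, of which 2 were higher and 1 lower with an unadjusted p under 0.05. HAUS3 had 23.8, 23.1 and 23.1 CPM in GFP cells and 33.9, 29.3 and 34.2 CPM in RfA1 cells. The GFP libraries of HAUS3 were within 1 CPM of each other. Every RfA1 library was above them, as for 9.86% of all tested genes in CPM (log2 fold change 0.47, standard error 0.099, unadjusted p = 0.000486, adjusted p = 0.166 in edgeR). HAUS3 passed after the GC correction (0.36, adjusted p = 0.0275 in edgeR) and without RfA1 replicate 2 (0.54, adjusted p = 0.00179). Of the other augmin genes, HAUS6 was at 0.21 and HAUS5 at -0.26, and both passed without RfA1 replicate 2, at 0.26 (adjusted p = 0.0308 in edgeR) and -0.40 (adjusted p = 0.00345). With the GC correction HAUS6 was at 0.10 (adjusted p = 0.442 in edgeR) and HAUS5 at -0.21 (adjusted p = 0.231), and neither passed.

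The 12 minus-end binding, severing and release factors had a median of 0.09, with 1 gene higher and 1 lower by an unadjusted p under 0.05. KATNAL2, a relative of the severing enzyme katanin, had the smallest p, at a low level of 2.88, 2.56 and 2.91 CPM in GFP cells and 2.18, 1.72 and 0.762 CPM in RfA1 cells. Its groups did not overlap, with RfA1 lower, as for 8.01% of all tested genes in CPM (log2 fold change -0.83, standard error 0.31, adjusted p = 0.295 in edgeR). The value rested on single libraries, and was -0.51 without RfA1 replicate 3 and -1.16 without RfA1 replicate 1. KIF2A, a kinesin that removes subunits from microtubule ends, was at 0.23, and at 0.33 without RfA1 replicate 2, where it passed (adjusted p = 0.00743 in edgeR). KIF2A was at 0.14 after the GC correction and did not pass (adjusted p = 0.261 in edgeR). The CAMSAP genes, whose products coat free minus ends, ranged from -0.11 (CAMSAP3) to 0.13 (CAMSAP2).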

How the data were processed

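HEK-293T cells with GFP (n = 3) or GFP-tagged RfA1 (n = 3) were compared. Groups and replicate numbers came from the sample labels. Per the submitters' processing notes HISAT and the build GRCh38.p13 were used, and the counting tool, its annotation and its use of strand are not given in the sources used here, so that reads of overlapping or antisense genes cannot be told apart. The deposited table holds estimated counts (7.39% to 8.02% of a library's values not whole), TPM and FPKM, which the authors made for each library. Averages in the table were not used. Read depth bears on counting error, which the count model includes.

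Estimated counts were rounded, filtered (filterByExpr, minimum count 10, minimum total 15), TMM-normalized and tested in edgeR 4.0.16 (R 4.3.3) by the robust quasi-likelihood method. Tests were two-sided, p-values were adjusted by Benjamini-Hochberg over all tested genes, and the threshold was 0.05. DESeq2 1.42.0, limma 3.58.1 on log2(TPM + 1) and log2(TPM + 0.1), other normalizations and filters, the replicate block, a GC correction (spline with 5 degrees of freedom on the GC content of 1 GENCODE 29 transcript per gene, 98.3% of genes matched) and each library left out were the alternatives. Added after seeing the data were the sum of MZT2A and MZT2B, levels in FPKM or per GENCODE length, and levels without each library. Intervals of fold changes are 95% intervals from the model. The script was tested on simulated data. Named were all members, MZT2A, the gene of smallest p in each list where none passed, and the 3 genes most like TUBG1 or TUBG2, of which 1 is not reported here. Other genes of a list were named for their function or after their values were seen. Members and lists were chosen with earlier results of these data known.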

Additional observations from a re-analysis of the deposited data

How the results depend on the processing

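The count of members past the adjusted threshold was 0 in edgeR and stayed 0 under DESeq2, scaling by the upper quartile or by library size alone, no filter, at least 10 counts in every library, both limma fits, the GC correction and the GC correction with the replicate block. It was 1 with the replicate block alone (MZT2B, log2 fold change -0.33, adjusted p = 0.0453 in edgeR), where 4.81% of all tested genes passed. With each library left out it was 0 to 5, the 5 without RfA1 replicate 2, where 20.1% of all tested genes passed. Over all genes, 10 calls in edgeR became 33 with DESeq2, 6 with upper-quartile normalization, 20 without a filter, 4 with limma-trend on log2(TPM + 1), 625 with the replicate block, 206 with the GC correction, 459 with the GC correction and block, and 0 to 2636 with each library left out. Of the 51 genes of the other lists, 0 passed in edgeR, 2 with the block, 2 with the GC correction, 4 with both and 0 to 13 with each library left out. The shares of all tested genes were 4.81% with the block, 1.58% with the GC correction and 3.53% with both. The 13 were without RfA1 replicate 2, where the share was 20.1%. The sum of TUBG1 and TUBG2 ranged from -0.27 to -0.10 on the log2 scale with each library left out and passed only without RfA1 replicate 2. It was -0.16 with the replicate block (adjusted p = 0.177).

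Single members kept their sign and their side of the threshold in 151 of 163 refits, 6 passed the threshold (5 without RfA1 replicate 2 and MZT2B under the block) and 6 changed sign. These were TUBGCP2 (0.0132 with the GC correction and 0.0123 with the correction and block), NEDD1 (-0.0393 and -0.0394) and TUBGCP4 (0.0157 and 0.0170 in limma-trend on log2(TPM + 1) and on log2(TPM + 0.1)), and the cause was not tested. The log2 ratio of TUBG2 to TUBG1 kept its sign in every refit, from -0.32 to -0.17 with each library left out. As differences within same-numbered pairs it was -0.25 (exact sign-flip test with the pairing, p = 0.25, the smallest that 3 pairs allow). Same-numbered libraries deviated from their group means with correlations of 0.166, 0.321 and -0.143, and 3 of 6 libraries correlated best with their own number, so the numbers were not taken to pair the samples. GFP replicate 2 and RfA1 replicate 2 correlated best with each other, and each was highest in its group on the GC scale (0.35 and 0.26). The labels do not say whether same-numbered libraries shared a batch, and this was not tested. Of 20 ranks in level, 20 were kept in FPKM and 15 with GENCODE lengths, and 17 to 20 with each library left out.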
